A study of Mus musculus with 6 samples.

Results

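Cation-chloride cotransporters and the WNK kinases that control them were followed by 7 genes fixed by symbol, out of 35865 genes in the annotated files. They are the importer gene Slc12a2, the exporter genes Slc12a5 and Slc12a7, the kinase genes Wnk1 and Wnk3, and the genes of the 2 kinases that WNK kinases activate, Stk39 and Oxsr1. All 7 passed the filter on low counts, as did 20315 genes in all. The 7 genes have 67 annotated transcripts in the files, of which 49 passed the same filter.

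The hippocampus was taken from 3 wild-type (WT) and 3 Prmt9 knockout (Prmt9 KO) mice, all female, of the B6J strain and 2 weeks old. The WT mice were same-sex littermates. In the Prmt9 KO mice, which lack the gene in the whole body, a floxed exon 5 had been deleted in the germline with CMV-Cre, so that a change in the hippocampus need not arise there. Polyadenylated RNA was sequenced, and the deposited values are kallisto's estimated counts and its abundance scaled for depth and transcript length (TPM), so that levels of different genes can be set side by side.

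NKCC1, the product of Slc12a2, brings sodium, potassium and chloride into the cell. KCC2, the product of Slc12a5, exports potassium and chloride and is found in neurons, whereas KCC4, the product of Slc12a7, is an exporter of epithelia and other tissues. The balance of import and export sets the chloride gradient on which GABA-A and glycine receptors act, and in the rodent brain it shifts from import toward export after birth as KCC2 rises. WNK1 and WNK3 are chloride-sensitive kinases that activate SPAK (Stk39) and OSR1 (Oxsr1), and these phosphorylate NKCC1, which activates it, and the KCC exporters, which inhibits them. In the brain NKCC1 is present in neurons, in the choroid plexus and in glia, among them cells of the oligodendrocyte lineage.

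The transcripts of Slc12a5 differ at their first exon and at a microexon, those of Wnk1 and Wnk3 at cassette exons and splice sites, and the sequences that set these forms apart are shown because the isoform shares below rest on them. All are read 5′ to 3′ from the annotated transcripts of GRCm38. Slc12a5 lies on the forward strand of chromosome 2 (chr2:164960802-164999731). First exon 1a is used by KCC2a and first exon 1b by KCC2b. The coding part of exon 1a has 121 bases (chr2:164960883-164961003), with the start codon in capitals, and leaves 1 base beyond whole codons. The 15-base exon (chr2:164996864-164996878), in capitals between 20 bases of each neighbouring exon, is a coding microexon near the end of the protein.
Slc12a5 exon 1a, coding part: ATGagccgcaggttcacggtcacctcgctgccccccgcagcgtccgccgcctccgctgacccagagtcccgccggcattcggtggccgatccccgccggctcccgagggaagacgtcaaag
Slc12a5 exon of 15 bases: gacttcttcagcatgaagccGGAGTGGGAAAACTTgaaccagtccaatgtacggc

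Wnk1 lies on the reverse strand of chromosome 6 (chr6:119923969-120038672). Its exon of 1236 bases (chr6:119962397-119963632) follows exon 8 of the long transcript Wnk1-202 and is the site of HSN2, an exon of the nervous system that is mutated in a hereditary sensory neuropathy. The first 60 bases of this exon are in capitals after 20 bases of the exon before it. Wnk3 is read from the forward strand of chromosome X (chrX:151198078-151320152). There, a pair of 5′ splice sites gives a longer and a shorter form of 1 exon, and the 141 bases between them (chrX:151293901-151294041) are in capitals with 20 bases on each side. Each of these stretches is a whole number of codons.
Wnk1 exon of 1236 bases, start: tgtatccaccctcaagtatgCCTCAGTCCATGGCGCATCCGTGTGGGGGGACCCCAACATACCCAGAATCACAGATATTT
Wnk3 alternative part of the exon: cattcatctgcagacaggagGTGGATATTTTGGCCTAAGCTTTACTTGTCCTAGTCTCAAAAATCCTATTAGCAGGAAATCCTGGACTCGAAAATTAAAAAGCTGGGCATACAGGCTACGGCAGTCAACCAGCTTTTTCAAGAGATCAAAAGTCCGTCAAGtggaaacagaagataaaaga

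As a check of the labels, Prmt9 itself, a protein arginine methyltransferase gene, was measured at 11.8, 15.2 and 14.96 TPM in WT replicates 1, 2 and 3 and at 3.93, 4.61 and 4.67 TPM in the Prmt9 KO replicates. Every Prmt9 KO mouse lay below every WT mouse. WT replicate 1 and Prmt9 KO replicate 1 stood apart from the other 4 mice, at −109.85 and −30.64 on a first principal component that held 67.4% of the variance and placed the others between 31.32 and 37.49. Some of the results below are therefore also given without these 2 mice. The transcript, usage and event tests were not run without both. Markers of the cell types of the hippocampus were all above 1 TPM in every mouse. Between mice, the sum over 6 oligodendrocyte markers varied from 1127 to 12004 TPM, while that over 3 markers of their precursors stayed between 58.3 and 67.8 TPM. The 7 choroid plexus markers, which come from tissue beside the hippocampus, summed to 7287 TPM in WT replicate 1 and to between 614 and 3361 TPM in the other mice.

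The order of the 7 genes by mean level was Slc12a5, Wnk1, Stk39, Oxsr1, Slc12a2, Wnk3 and Slc12a7. Slc12a5 had a mean of 158.7 TPM over the 6 mice, 1.57 times the 100.9 TPM of Wnk1, and was the higher of the pair in 6 of 6 mice. Wnk1 was 3.31 times Stk39 (30.5 TPM), and theirs was the only pair of neighbours in the order whose ranges did not overlap. Stk39 exceeded Oxsr1 (24.6 TPM) in 5 of 6 mice, and Oxsr1 exceeded Slc12a2 (19.1 TPM) in 5 of 6 mice, so that these 3 neighbours were separated by less than the spread between mice. Slc12a2 was 2.19 times Wnk3 (8.72 TPM) and Wnk3 was 1.54 times Slc12a7 (5.66 TPM), each in 6 of 6 mice. Both kinases downstream of WNK thus lay between the 2 WNK genes in level. These levels sum over all transcripts of a gene, non-coding ones included. With protein-coding transcripts alone, Slc12a2 had a mean of 18.9 TPM and Oxsr1 of 17.2 TPM, so this pair changed places.

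**Figure D1:**
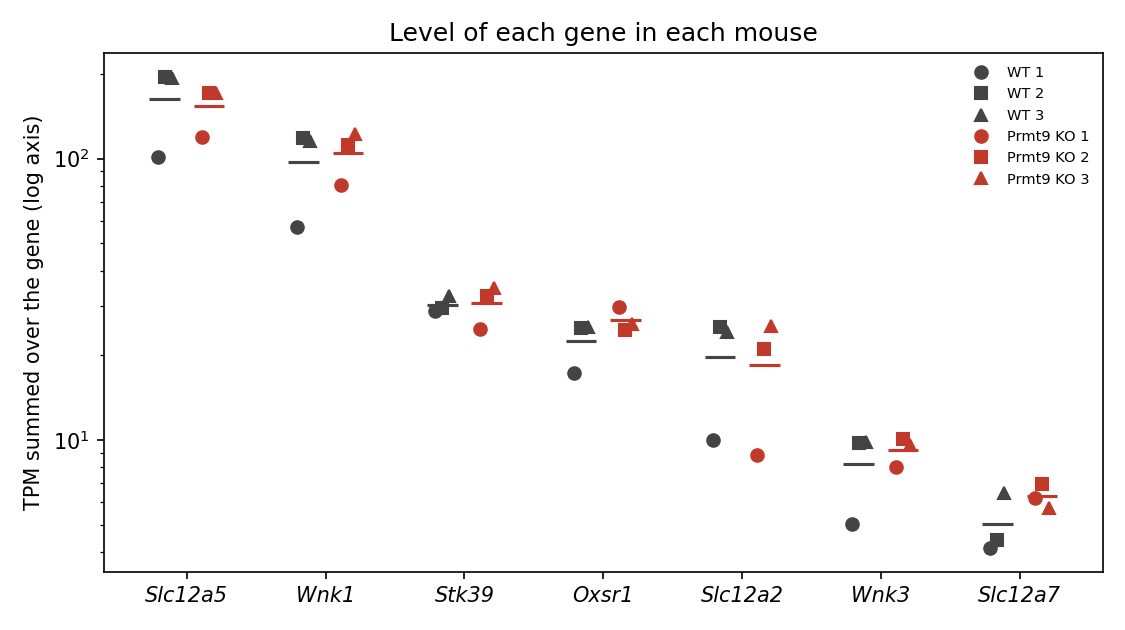
TPM summed over each gene (log axis) in each of 3 WT mice (dark) and 3 Prmt9 KO mice (red), with the symbol giving the replicate number and the short lines the group means. For Slc12a5, Wnk1, Slc12a2, Wnk3 and Stk39, both mice numbered 1 (circles) lie below the other 4, and for all 7 genes the genotypes overlap.

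Across genotypes, 0 of the 7 genes were called in edgeR's quasi-likelihood test, which needed an adjusted p below 0.01 and more than a 1.5-fold change, where 0.0% of the 20315 genes tested were called. This includes the deleted gene, since Prmt9 reached an adjusted p of 0.0327 with a log2 fold change of −1.71 ± 0.10 (SE). The adjusted p was 1 for each of the 7. No member had an unadjusted p below 0.05, which 1.24% of all genes had. The smallest was 0.279, for Slc12a7. DESeq2, which called 4 genes in all and Prmt9 among them, and limma on log2(TPM + 1) also called 0 of the 7 and gave 0 with an unadjusted p below 0.05. In none of the 7 did the TPM of the genotypes stand apart, which they did in 6.67% of all genes. The log2 fold changes of Prmt9 KO over WT ran from −0.15 to 0.19, with a median of 0.03 over the 7 genes and −0.01 over all genes.

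The importer gene Slc12a2 was measured at 10.02, 25.2 and 24.1 TPM in WT replicates 1, 2 and 3 and at 8.86, 21.1 and 25.3 TPM in Prmt9 KO replicates 1, 2 and 3. The 2 low values belonged to the mice numbered 1 of both genotypes, and the other 4 mice overlapped. The means were 19.8 ± 8.5 and 18.4 ± 8.5 TPM (SD, n = 3 each), with a log2 fold change of −0.15 ± 0.40 (SE) in edgeR. Between mice of the same number the log2 ratio was −0.18, −0.26 and 0.07.

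Of the 7 genes, Slc12a2 had the largest gap between the mice numbered 1 and the others, at 0.395 times their mean TPM. Oligodendrocyte markers moved with it. The 6 markers, among them the myelin gene Mbp, summed to 2156, 12004 and 10442 TPM in WT replicates 1, 2 and 3 and to 1127, 8226 and 11513 TPM in the Prmt9 KO replicates. All 6 were lower in both mice numbered 1 than in any other mouse, at 0.0829 to 0.325 times their mean. The mice stood in the same order by Slc12a2 as by this sum, except that WT replicate 2 and Prmt9 KO replicate 3, the 2 highest by either measure, changed places. The part of oligodendrocytes in the Slc12a2 values was not tested, and in bulk tissue fewer cells of a type and less RNA per cell cannot be told apart. Markers of oligodendrocyte precursors differed little, with a sum in the mice numbered 1 that was 1.02 times that of the others. The 7 choroid plexus markers ranged from 0.468 to 1.98 times the level of the others in the mice numbered 1, and for 0 of the 7 were both of these mice below or above the other 4. Their sum was mostly Ttr, the transthyretin gene, at 7157 TPM in WT replicate 1, while Otx2, for example, was highest in Prmt9 KO replicate 3 at 9.92 TPM. Their part in the Slc12a2 values was not tested.

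**Figure D2:**
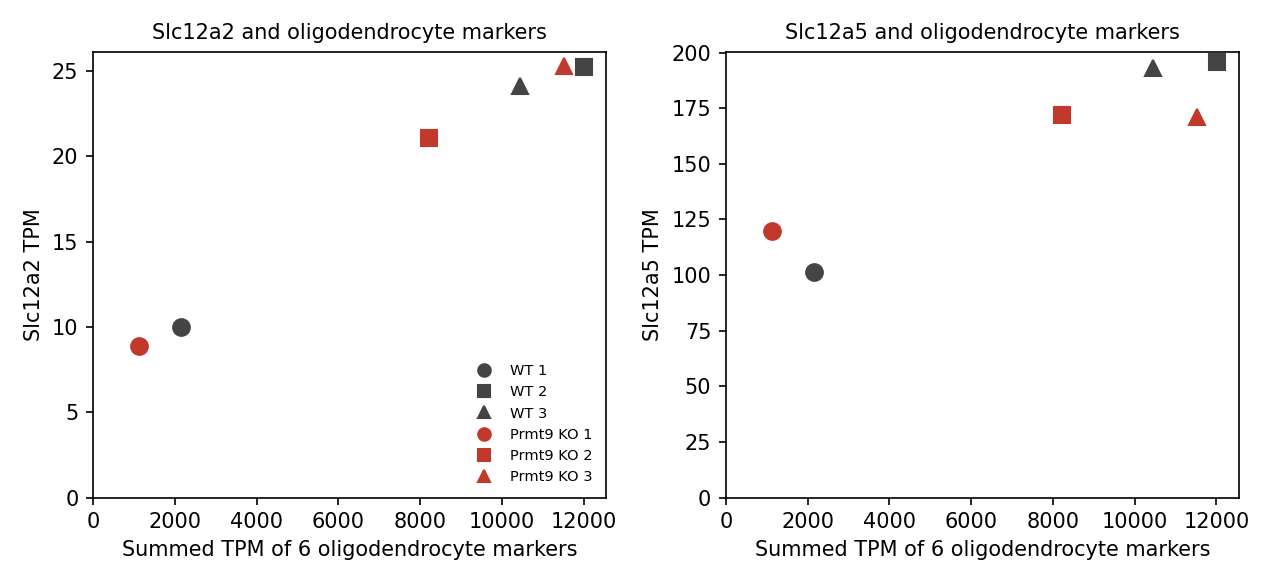
TPM of Slc12a2 (left) and Slc12a5 (right) against the summed TPM of 6 oligodendrocyte markers, with 1 point per mouse (WT dark, Prmt9 KO red, symbols as replicate numbers). Slc12a2 lies at 8.86 and 10.02 TPM in the 2 mice with low marker sums and at 21.1 to 25.3 TPM in the 4 with high sums. Slc12a5 lies at 101 and 120 TPM in the former and at 171 to 196 TPM in the latter.

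Genes whose pattern over the 6 mice was most like that of Slc12a2 were looked up by Pearson's r of log2 CPM among 10550 genes with at least 10 CPM. The 3 most alike were the myosin gene Myo1e (r = 0.9994), the gap junction gene Gjc3 (r = 0.9986), which encodes a connexin of myelinating glia, and Plekhg3 (r = 0.9983). Over the 4 mice without those numbered 1, r was 0.998, 0.982 and 0.993. The values share their libraries, and 928 of the 10550 genes had an r above 0.95, so that many genes shared this likeness.

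Slc12a5, which encodes the neuronal exporter, was measured at 101.3, 195.7 and 193.1 TPM in WT replicates 1, 2 and 3 and at 119.7, 171.7 and 170.9 TPM in the Prmt9 KO replicates. Again both mice numbered 1 were lowest, at 0.604 times the mean of the others, and the genotypes overlapped. The log2 fold change over all 6 mice was −0.14 ± 0.19 (SE). Among the 4 remaining mice, the log2 fold change of Slc12a5 was −0.20. Its unadjusted p there was 0.00133 in edgeR and its adjusted p was 0.126, so it was not called. In that fit 0 of the 7 genes and 0.00488% of all genes were called, and 8.6% of all genes had an unadjusted p below 0.05 with a lower level in Prmt9 KO. Between the mice numbered 1 the difference had the other sign, with a log2 ratio of 0.24 against −0.19 and −0.18 in the other pairs. The genes most like Slc12a5 over the 6 mice were Mgat3 (r = 0.9994), a glycosyltransferase gene, Doc2b (r = 0.9989), a calcium sensor gene of vesicle release, and Tmem25 (r = 0.9989), and here 950 genes had an r above 0.95. Over the 4 mice r was 0.999, 0.999 and 0.992.

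Of 7 markers of neurons, 5 were lower in both mice numbered 1 than in the other 4 and 1 was higher. Snap25, a gene of vesicle release, was at 517 and 781 TPM in the mice numbered 1 and at 1132 to 1269 TPM in the others, whereas Stmn2, which is high in young neurons, was at 879.8 and 1170 TPM beside 344.6 to 393.1 TPM. The sum of the 7 was 0.907 times that of the others. The 3 markers of immature neurons, Dcx, Sox11 and Igfbpl1, were all higher in both mice numbered 1 than in the other 4, and their sum was 1.72 times as high. The 3 markers of inhibitory neurons were all lower, with a sum of 0.647 times. The part of neuron content and of neuronal maturity in the Slc12a5 values was not tested.

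Slc12a7, the lowest of the 7 genes, was measured at 4.11, 4.42 and 6.49 TPM in WT and at 6.22, 6.96 and 5.75 TPM in Prmt9 KO mice. WT replicate 3 stood above 2 of the 3 Prmt9 KO mice. Its log2 fold change of 0.19 ± 0.16 (SE) was the largest of the 7 in size. The single protein-coding transcript in the annotation, Slc12a7-201, had 2.40, 2.28 and 2.54 TPM in WT and 2.87, 3.20 and 2.65 TPM in Prmt9 KO mice. These did not overlap, which gives an exact permutation p of 0.1 (two-sided), the smallest that 3 mice against 3 allow. Of the 7 genes, it was the 1 whose coding TPM stood apart, beside the 6.67% of genes given above for TPM summed over all transcripts. In edgeR the same transcript had an unadjusted p of 0.409. Between 39.1% and 58.4% of the gene's TPM came from this coding transcript, and between 24.1% and 35.0% from Slc12a7-206, a fragment of 356 bases annotated as a retained intron and backed by 21.6 to 65.6 estimated counts per mouse. A further retained-intron transcript, Slc12a7-211, took 3.69 to 9.37%.

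The balance of importer to exporter mRNA was taken in each mouse as the TPM of Slc12a2 divided by that of Slc12a5. The ratio was 0.0989, 0.129 and 0.125 in WT replicates 1, 2 and 3 and 0.0740, 0.123 and 0.148 in the Prmt9 KO replicates. The lowest value of each genotype belonged to its mouse numbered 1, and the Prmt9 KO mice held both the lowest and the highest ratio. The mean ratio was 0.118 ± 0.016 for WT and 0.115 ± 0.038 for Prmt9 KO mice (SD, n = 3 each), a log2 difference of −0.08 (two-sided exact permutation test, p = 0.8). Within pairs of equal number the log2 difference was −0.42, −0.07 and 0.25, so that it took both signs. Without the mice numbered 1 it was 0.09. With protein-coding transcripts alone the ratio was higher, at 0.154 ± 0.019 and 0.151 ± 0.052 (SD, n = 3 each), and the log2 difference remained −0.08. The ratio is one of mRNA summed over all cells of the tissue, and its 2 genes need not be measured in the same cells.

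**Figure D3:**
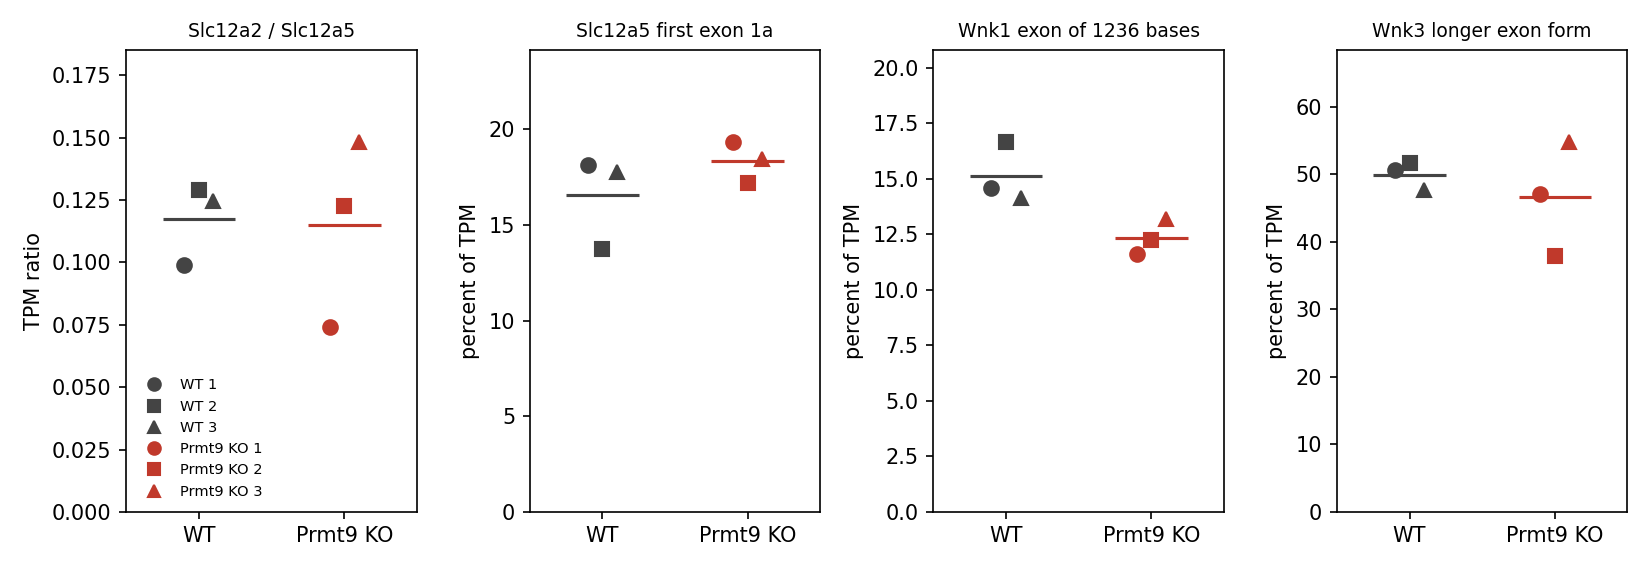
From left to right, the Slc12a2 to Slc12a5 TPM ratio and, as a percent of TPM, the share of Slc12a5 first exon 1a, of the Wnk1 exon of 1236 bases and of the longer Wnk3 exon form, with 1 point per mouse and lines at group means (WT dark, Prmt9 KO red, symbols as replicate numbers, axes from 0). The genotypes overlap in all but the Wnk1 exon, where WT lies at 14.2 to 16.6% and Prmt9 KO at 11.6 to 13.2%.

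The WNK kinase gene Wnk1 was measured at 57.2, 118.5 and 115.2 TPM in WT and at 80.3, 112.0 and 122.2 TPM in Prmt9 KO mice. As for the transporters, the mice numbered 1 were lowest, at 0.588 times the mean of the others, and Prmt9 KO replicate 3 was highest. The log2 fold change was −0.01 ± 0.30 (SE), and its sign depended on the fit. Wnk3, whose product also acts on both NKCC1 and the KCC exporters, had 5.03, 9.75 and 9.83 TPM in WT and 8.01, 10.1 and 9.58 TPM in Prmt9 KO mice. Only the mice numbered 1 fell outside a range of 9.58 to 10.1 TPM. The log2 fold change of Wnk3 was 0.12 ± 0.17 (SE), and without the mice numbered 1 it was 0.00.

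Stk39, which encodes SPAK, the first of the kinases that WNK1 and WNK3 phosphorylate, had 28.8, 29.5 and 32.5 TPM in WT and 24.9, 32.6 and 34.8 TPM in Prmt9 KO mice. Its groups overlapped, and the log2 fold change was 0.03 ± 0.11 (SE). Without the mice numbered 1, the log2 fold change of Stk39 was 0.14 (edgeR, unadjusted p = 0.00923, adjusted p = 0.18). In that fit 7.82% of all genes had an unadjusted p below 0.05 with a higher level in Prmt9 KO. Slc12a5 and Stk39 were the 2 of 7 members with such a p in that fit, in opposite directions, beside 16.4% of all genes in either direction. Oxsr1, which encodes OSR1, had 17.4, 24.96 and 25.1 TPM in WT and 29.6, 24.6 and 25.8 TPM in Prmt9 KO mice. Here the mice numbered 1 held the lowest and the highest value, while the other 4 lay between 24.6 and 25.8 TPM. The log2 fold change of Oxsr1 was 0.12 ± 0.12 (SE), and −0.02 without the mice numbered 1.

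**Figure D4:**
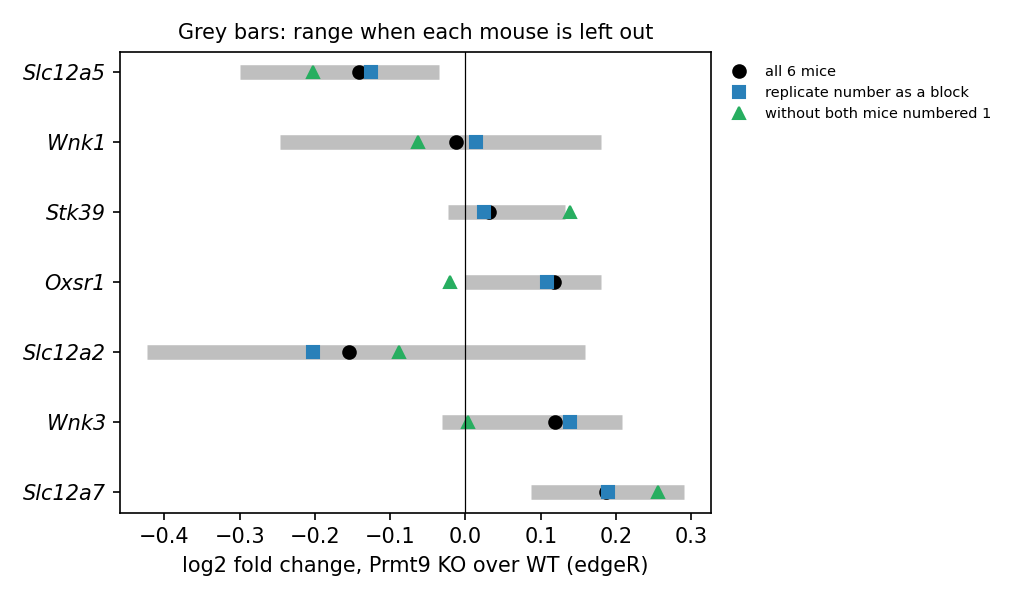
Log2 fold change of Prmt9 KO over WT in edgeR for each gene with all 6 mice (circles), with the replicate number as a block (squares) and without both mice numbered 1 (triangles), and the range when each mouse is left out in turn (grey bars). With all 6 mice the values lie between −0.15 and 0.19, and the grey bars of Slc12a2, Wnk1, Wnk3, Stk39 and Oxsr1 reach across 0.

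Both mice numbered 1 had lower TPM than the other 4 in 5 of the 7 genes, as in 45.8% of all genes tested, and higher TPM in 0 of the 7, as in 19.0% of all genes. The gap grew with transcript length across the library. For 806 genes whose most counted coding transcript had 6000 to 8000 bases, the median log2 ratio of the mice numbered 1 over the others was −0.54, with quartiles at −0.76 and −0.31, and for 535 genes above 8000 bases it was −0.61. Slc12a2, with a coding transcript of 6520 bases, lay below the lower quartile of its length class at −1.34. Slc12a5, with 6028 bases, lay within the quartiles of the same class at −0.73. Wnk1, with 10575 bases, was at −0.77, where the quartiles of its class were −0.84 and −0.36. Wnk3, with 5253 bases, was at −0.59 and Slc12a7, with 5142 bases, at −0.19, both within the quartiles of −0.63 and −0.18 for 4000 to 6000 bases. Oxsr1, at −0.10 with 4647 bases, was above them. Stk39, with 3536 bases, was at −0.27 in a class whose median was −0.20.

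The shares of single transcripts within each gene were compared next. In the transcript usage test of edgeR, 0 of the 7 genes were called, and 0.162% of 13560 genes were. None of the 7 had an unadjusted p below 0.05, which 1.67% of those genes had. limma's diffSplice called 0 of the 7 as well, and gave 1 of them an unadjusted p below 0.05. Over all genes it called 3 and gave 490 an unadjusted p below 0.05. Of the 49 transcripts tested, 0 were called by edgeR (0.0% of 75661 transcripts) or by DESeq2, which called 94 transcripts in all. In edgeR, 0 of the 49 had an unadjusted p below 0.05 (1.61% of all). Of the 21 transcripts that took at least 5% of their gene's TPM on average, 2 had shares that did not overlap between genotypes, beside 9.38% of 39904 such transcripts. They were Slc12a2-201 and Oxsr1-201.

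Slc12a2 (chr18:57878678-57946821, forward strand) has 2 transcripts in the files and 1 of them codes for protein. Slc12a2-201, of 27 exons, held 99.2, 98.8 and 98.8% of the gene's TPM in WT and 98.3, 98.6 and 98.6% in Prmt9 KO mice. The difference of −0.39 percentage points had the smallest exact permutation p of 0.1, and without the mice numbered 1 it was −0.15 points. Exon 21 of this transcript, of 48 bases, is known as a variable exon of NKCC1, but 0 transcripts in the files join its neighbours without it, so that its use was not measured. The rest came from Slc12a2-202, a single exon of 4480 bases. For Oxsr1, the coding transcript Oxsr1-201 held 77.5, 71.4 and 70.5% in WT and 67.0, 70.3 and 67.4% in Prmt9 KO mice. WT replicate 3 and Prmt9 KO replicate 2 lay next to each other at 70.5% and 70.3%. The other large share of Oxsr1 belonged to Oxsr1-203, a retained-intron fragment of 780 bases. Computed from estimated counts, the Oxsr1-201 difference of −4.86 points became −1.39 points. It was −2.66 points without WT replicate 1 and −2.06 points without both mice numbered 1.

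In Slc12a5, KCC2b was the main form. Slc12a5-201, which starts at exon 1b and holds the 15-base exon, took 60.6, 65.6 and 62.3% of the gene's TPM in WT and 61.1, 62.6 and 59.9% in Prmt9 KO mice. Slc12a5-207, the KCC2a transcript, starts at exon 1a and lacks the 15-base exon, and took 13.4, 10.5 and 12.5% in WT and 14.7, 12.9 and 13.6% in Prmt9 KO mice. The retained-intron transcripts Slc12a5-204 and Slc12a5-205 took 12.7 to 17.9% and 4.46 to 9.02%. The share of exon 1a among transcripts that join either first exon to the same next exon was 16.5 ± 2.4% for WT and 18.3 ± 1.1% for Prmt9 KO (SD, n = 3 each), with p = 0.4 by exact permutation. It was higher in Prmt9 KO in each pair of the same number, by 1.20, 3.44 and 0.70 points, although the groups overlapped. This sign rests on the numbering, in which 2 and 3 were not told apart. Prmt9 KO replicate 2 (17.2%) lay below WT replicate 3 (17.8%). The 15-base exon was included in 83.9 ± 2.2% and 81.7 ± 1.2% of the TPM of transcripts that could hold it (SD, n = 3 each), with p = 0.2 by exact permutation and differences of −1.32, −3.24 and −1.97 points within the pairs. The short transcripts Slc12a5-202 and Slc12a5-203 also start at exon 1a but join it to other exons, and they took 0.768 to 1.31% and 1.33 to 1.91% of the gene's TPM outside this share. The shares of exon 1a and of the 15-base exon are not separate measurements. Slc12a5-209, the one annotated transcript with both exon 1a and the 15-base exon, stayed at or below 0.98% of the TPM, so that the use of the first exon and of the microexon cannot be told apart with these transcripts.

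The 250 bases before each of the 2 RefSeq starts of Slc12a5 (build GRCm38.p6, forward strand) are shown because exons 1a and 1b belong to separate promoters. They are chr2:164960596-164960845 before exon 1a and chr2:164967738-164967987 before exon 1b, the latter reaching a few bases into the exon of the annotation used for the transcripts. The capitals mark the E-box CACGTG, searched on both strands, to which USF factors are known to bind. The other motif searched was GCGNGGGCG, the binding motif of the EGR family, which was searched for on both strands too and does not overlap the E-box.
Slc12a5 before exon 1a: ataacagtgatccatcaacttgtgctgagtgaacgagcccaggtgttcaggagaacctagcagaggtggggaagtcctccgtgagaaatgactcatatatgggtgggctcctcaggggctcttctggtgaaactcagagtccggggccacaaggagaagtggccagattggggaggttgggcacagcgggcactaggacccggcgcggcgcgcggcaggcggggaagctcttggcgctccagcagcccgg
Slc12a5 before exon 1b: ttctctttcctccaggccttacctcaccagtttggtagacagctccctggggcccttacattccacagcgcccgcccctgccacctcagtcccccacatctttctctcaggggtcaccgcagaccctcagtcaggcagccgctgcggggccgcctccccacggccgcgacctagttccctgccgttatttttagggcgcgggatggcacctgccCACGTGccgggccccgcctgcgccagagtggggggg

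The E-box stood before exon 1b and not before exon 1a. In windows that run to 50 bases after the start, CACGTG was found in 7.15% of 32851 RefSeq promoters, among them 1 of 2 for Slc12a5 and 2 of 2 for Slc12a7, and in none of the single windows of Wnk1, Wnk3, Stk39 and Oxsr1. GCGNGGGCG was in 5.55% of the promoters and in none of the windows of these 6 genes. A match describes the letters of the window.

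For Wnk1, 26 transcripts are annotated and the largest shares belonged to fragments. Wnk1-208, a retained-intron transcript of 2934 bases at the 3′ end of the gene, took 35.5% of the TPM in WT replicate 1, 32.0% in Prmt9 KO replicate 1 and 18.8 to 20.7% elsewhere. The full-length coding transcript Wnk1-202 took 12.1, 13.6 and 13.3% in WT and 10.3, 14.0 and 11.8% in Prmt9 KO mice. Wnk1-201, whose first exon lies inside the gene in the region of the kidney-specific start that gives a kinase-deficient product, stayed at or below 0.0390 TPM in every mouse. The coding transcript Wnk1-224, of 8163 bases, took 6.12 to 12.4%. The fragments Wnk1-216, of 843 bases, and Wnk1-222, of 1221 bases, took 15.7 to 21.01% and 10.8 to 12.8%.

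The 5 coding transcripts of Wnk1 above 8000 bases summed to 12.2, 39.7 and 37.5 TPM in WT and to 16.6, 35.2 and 37.5 TPM in Prmt9 KO mice, and the use of 5 cassette exons was taken as a share of this sum, a choice made with the values known. The HSN2 exon of 1236 bases, whose start is printed above, was held by 14.6, 16.6 and 14.2% of the TPM of these long transcripts in WT and by 11.6, 12.2 and 13.2% in Prmt9 KO mice. Every Prmt9 KO mouse lay below every WT mouse, with means of 15.1 ± 1.3% and 12.3 ± 0.8% (SD, n = 3 each) and an exact permutation p of 0.1, the smallest possible. The difference was −2.99, −4.41 and −0.97 points between mice of the same number, and −2.69 points without the mice numbered 1. It was the 1 of 8 exon shares compared that did not overlap. Of 26621 events of all genes, 10.3% had PSI values that did not overlap. That is an unlike measure, since event PSI is not pooled over the long transcripts. Taken instead as a cassette event, with Wnk1-203 alone as the including form, the PSI of this exon was 9.96 ± 1.83% for WT and 8.46 ± 1.37% for Prmt9 KO (SD, n = 3 each). Its groups then overlapped (limma, unadjusted p = 0.377).

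The other 4 Wnk1 exons overlapped between the genotypes. The exon of 258 bases next to the HSN2 exon was held by 5.08 ± 2.52% of the long transcripts in WT and 3.41 ± 1.65% in Prmt9 KO mice (SD, n = 3 each). Exons 11 and 12, of 462 and 285 bases, which vary between tissues, were held by 46.1 ± 9.3% and 60.7 ± 7.3% in WT and by 44.3 ± 5.7% and 61.4 ± 1.9% in Prmt9 KO mice (SD, n = 3 each). The exon of 84 bases was held by 95.4 ± 4.0% and 91.9 ± 5.1% (SD, n = 3 each). It differed by −2.22, −3.85 and −4.55 points within the pairs of equal number. In WT replicate 1 its share was 100%, where Wnk1-204, the long transcript without it, had 2.4e-07 TPM. For these 4 exon shares, the exact permutation p lay between 0.4 and 1. Without the mice numbered 1, the exons of 462 and 285 bases differed by 0.72 and 4.40 points. As cassette events, the exons of 258, 462, 285 and 84 bases had mean PSI of 33.3, 75.4, 26.8 and 67.4% in WT. In Prmt9 KO mice the means were 27.3, 71.7, 28.4 and 63.5%, and the groups overlapped. The level of use thus depends on which transcripts are counted.

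In Wnk3 the longer and the shorter form of the alternative exon were about equally used. The longer form took 50.7, 51.6 and 47.6% of the TPM of the transcripts with either form in WT and 47.2, 37.9 and 54.7% in Prmt9 KO mice. Prmt9 KO replicates 2 and 3 held the lowest and the highest value (two-sided exact permutation test, p = 0.6). These transcripts summed to between 1.77 and 5.53 TPM per mouse. The largest single share of Wnk3 belonged to Wnk3-203, a processed transcript of 6410 bases that begins downstream of the alternative exon, with 64.8 and 58.2% in the mice numbered 1 and 45.3 to 48.9% in the others.

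**Figure D5:**
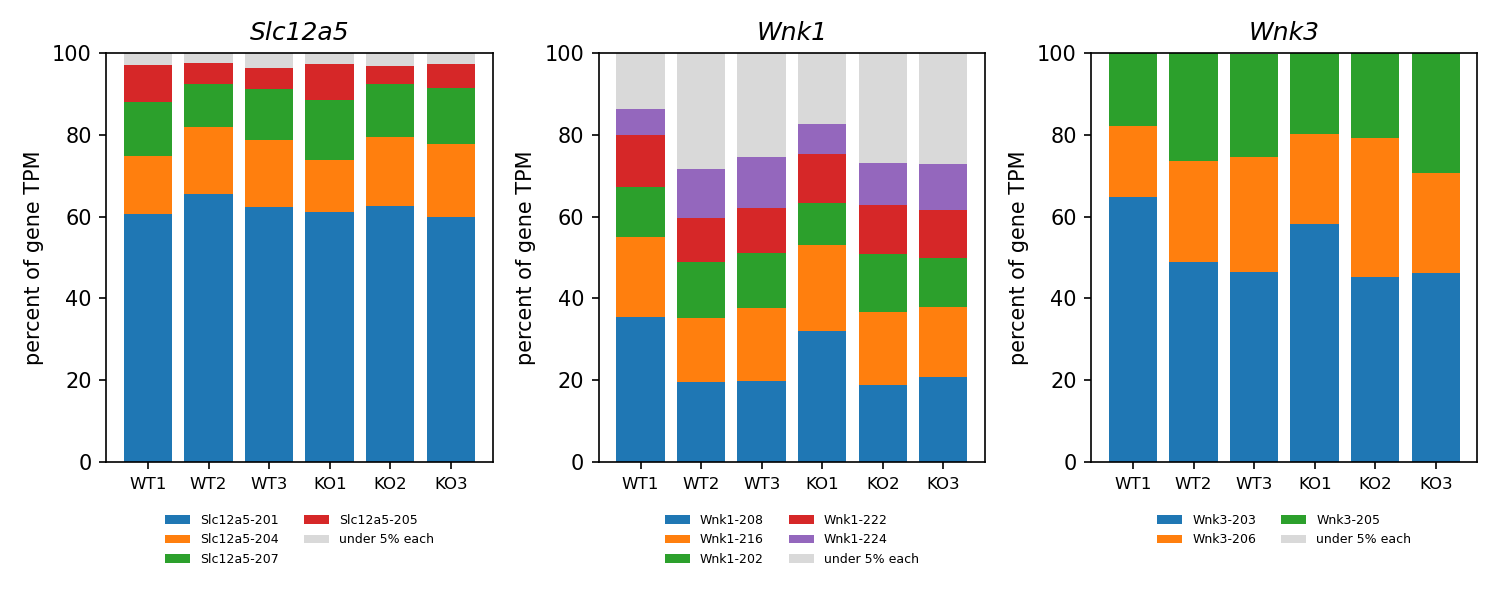
Percent of each gene's TPM held by transcripts of Slc12a5, Wnk1 and Wnk3 with a mean share of at least 5%, stacked per mouse (WT1 to KO3), with all other transcripts in grey. The transcripts Wnk1-208 and Wnk3-203 at the 3′ end take a larger part in WT1 and KO1 than in the other 4 mice, at 35.5 and 32.0% and at 64.8 and 58.2%.

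Among the 21 named transcripts, 5 had a higher share in both mice numbered 1 than in all others, and 23.3% of the 39904 transcripts did so. In the library as a whole, transcripts confined to the 3′ part of their gene held a median of 16.7% and 15.01% of the TPM in the mice numbered 1, over 865 genes, and between 10.8 and 12.3% in the other mice. The part of RNA quality in the levels of the mice numbered 1 was not tested. Within Stk39, the coding transcript Stk39-201 held 57.5% of the TPM in WT replicate 1 and between 83.2 and 89.6% elsewhere, while the retained-intron transcript Stk39-203, picked with its values in view, held 19.9% in WT replicate 1, 5.70% in Prmt9 KO replicate 1 and at most 1.75% in the rest. The remaining Stk39 transcripts past the 5% limit were the short fragments Stk39-204 and Stk39-207.

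Of 48 annotated splicing and first-exon events in the 7 genes, 21 passed the limits on TPM and on the share of the including form (percent spliced in, PSI). They were 15 events of Wnk1, 4 of Slc12a5 and 1 each of Wnk3 and Stk39. By limma, 0 were called (0.0% of 26621 events), 0 had an unadjusted p below 0.05 (3.14% of events) and 0 had PSI values that stood apart between genotypes. With the counts in place of TPM, 0 were called and 0 had an unadjusted p below 0.05 too. These events rest on the TPM of annotated transcripts, not on reads across splice junctions. The paper, which also allowed unannotated splice sites, reported many altered events in the hippocampus of these mice. The 0 here therefore does not show that splicing of the 7 genes was unchanged. The event of Stk39 nearest to even use, between the first exons of Stk39-207 and Stk39-204, reached a PSI of 52.6 ± 3.2% for WT and 64.5 ± 27.5% for Prmt9 KO (SD, n = 3 each). In Wnk1 the event nearest to even use was the retention of an intron of 2168 bases that ends inside exon 11, at 39.7 ± 9.8% and 43.3 ± 19.4% (SD, n = 3 each).

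Genes around the 7 were read in 5 lists from general knowledge, and 0 genes of any list were called or had an unadjusted p below 0.05 in edgeR, nor were any called by DESeq2. The other SLC12 genes (6 of 6 tested) had a median log2 fold change of −0.03. They include the KCC1 gene Slc12a4, at 25.3 ± 2.7 TPM in WT and 25.1 ± 4.9 TPM in Prmt9 KO mice, and Slc12a9, at 28.8 ± 4.6 and 29.8 ± 3.7 TPM (SD, n = 3 each). In the mice numbered 1, Slc12a4 was at 0.762 times the level of the other mice, where Slc12a5 was at 0.604.

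The 9 other WNK pathway genes had a median of −0.05. Klhl2, a substrate adaptor that brings WNK kinases to the CUL3 ubiquitin ligase, had 131.5 ± 46.7 TPM in WT and 124.3 ± 32.2 TPM in Prmt9 KO mice, and Cul3 had 69.3 ± 13.1 and 78.3 ± 1.1 TPM (SD, n = 3 each). The ubiquitin ligase gene Nedd4l lay between 53.8 and 82.3 TPM. The 8 partners and regulators of KCC2 had a median of −0.10, and their most abundant genes were Ckb (brain creatine kinase), Pacsin1 and Epb41l1. Ckb lay between 1194 and 1395 TPM in all mice, while Pacsin1 and Epb41l1 were at 0.561 and 0.581 times the level of the other mice in the mice numbered 1. The 9 genes of chloride and bicarbonate handling had a median of 0.02, with Car2, a carbonic anhydrase gene, Slc4a3 and Slc4a10, both bicarbonate transporter genes, as the most abundant. The 6 sodium pump genes, whose product maintains the gradients that the cotransporters use, had a median of −0.03. Of these, Atp1b1, which encodes a beta subunit, had 1146 ± 227 TPM in WT and 1123 ± 149 TPM in Prmt9 KO mice (SD, n = 3 each).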

How the data were processed

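RNA-seq of hippocampus was analysed in 3 WT and 3 Prmt9 KO mice, grouped by the genotype in the labels. The authors quantified paired-end reads with kallisto (0.46.0 in the submitters' processing notes) and deposited an estimated count, not normalized, and a TPM value, which kallisto scales by effective length and library size, for each transcript. They also deposited a gene table of TPM made with tximport, which served as a check. The estimated counts of a WT mouse summed to 194098391 to 249217021 and those of a Prmt9 KO mouse to 222085851 to 286771677, so counting error is small beside the spread between mice for all but short fragments. How kallisto divides reads among transcripts of shared sequence was not modelled.

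Of 118783 transcripts, 116622 matched the GENCODE annotation of GRCm38 (release M21). Counts were summed per gene and rounded, and the tests ran in edgeR 4.0.16 under R 4.3.3 (TMM, filterByExpr, quasi-likelihood F test, Benjamini-Hochberg adjustment). A gene or transcript call needed more than a 1.5-fold change with an adjusted p below 0.01. SE is the log2 fold change divided by the root of F. Transcript usage was tested with diffSpliceDGE (Simes) and events with limma 3.58.1 on the log2 ratio of the TPM of both forms after adding 0.1 to each, where no mouse had under 1 TPM and the mean PSI was 0.05 to 0.95 in either genotype. Alternatives were DESeq2 1.42.0, its size factors, no filter, limma on log2(TPM + 1), at least 10 counts or 5 TPM in every mouse, 1 TPM added, estimated counts for events with 1 count added, a term for the mice numbered 1, a replicate block, and leaving out mice. Single values were compared by exact permutation over mice. The tests were also run on simulated data of independent mice, which did not hold the gap of the mice numbered 1. No outcome of those runs is used here.

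Members and lists were chosen with earlier results of these data known. Named were all 7 genes, transcripts with a mean share of at least 5%, events with an unadjusted p below 0.05 or separated groups and the event nearest to a PSI of 0.5 in each gene, the 3 most abundant genes of each list and any with an unadjusted p below 0.05, and the 3 genes most like Slc12a2 and Slc12a5. Outside this rule, Slc12a2-202, Slc12a5-202, Slc12a5-203, Slc12a5-209, Wnk1-201 and Stk39-203 were picked with their values in view. Some items that the rule names are not reported here. Nothing in the sources used here ties replicate numbers to a litter, and deviations from the genotype mean were correlated at 0.554, 0.415 and 0.384 between mice of the same number, above the limit of 0.1 for pairing. The numbers 2 and 3 were not told apart, since WT replicate 2 and Prmt9 KO replicate 3 were correlated at 0.417. Deviations from a mean of 3 mice depend on each other, so the gap of the mice numbered 1 by itself raises these values. Passing the limit therefore does not show that mice of the same number were paired. Python 3.11.15, pandas 2.3.3, SciPy 1.17.1 and matplotlib 3.10.9 were used.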

Additional observations from a re-analysis of the deposited data

How the results depend on the processing

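No gene, transcript, usage test or event of the 7 genes was called under any alternative run. The sign of the small log2 fold changes was not stable. With limma on log2(TPM + 1), the Wnk1 value of −0.01 became 0.16, the replicate block brought it to 0.0137, and a term for the mice numbered 1 to 0.0135. Without both mice numbered 1, the Oxsr1 value became −0.0208. Leaving out each mouse in turn, the log2 fold change ranged from −0.42 to 0.16 for Slc12a2, from −0.30 to −0.04 for Slc12a5, from 0.09 to 0.29 for Slc12a7, from −0.25 to 0.18 for Wnk1, from −0.0318 to 0.21 for Wnk3, from −0.0232 to 0.13 for Stk39 and from −0.0013 to 0.18 for Oxsr1. The mouse whose absence turned the sign was WT replicate 2 or Prmt9 KO replicate 1 for Slc12a2, WT replicate 2 or 3 or Prmt9 KO replicate 1 for Wnk1, WT replicate 1 for Wnk3, Prmt9 KO replicate 2 or 3 for Stk39 and Prmt9 KO replicate 1 for Oxsr1. In the fit with the replicate block, Slc12a2 was at −0.20 (edgeR, unadjusted p = 0.093) and Slc12a5 at −0.13, and the block changed no call. The log2 difference of the Slc12a2 to Slc12a5 ratio ranged from −0.29 to 0.21 when each mouse was left out. The share of Slc12a2-201 differed by −0.15 points without both mice numbered 1 and that of Oxsr1-201 by −1.39 points with estimated counts. The causes were not tested. Under the alternatives, 78 log2 fold changes kept their sign and 13 did not.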

Other observations

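Among the cell types marked in these samples, endothelial and mural cell markers summed to 181 to 187 TPM in the mice numbered 1 and to 120 to 139 TPM in the others. Among them, Cldn5, the tight junction gene, was at 107.2 and 89.2 TPM in the mice numbered 1 beside 37.1 to 45.2 TPM. The vascular receptor gene Flt1 went the other way, at 7.19 and 7.89 TPM beside 14.8 to 20.5 TPM. The sums of the microglia and astrocyte markers in the mice numbered 1 were 0.803 and 0.828 times those of the other mice. Single markers ranged from 0.530 to 1.015 times for microglia and from 0.697 to 0.973 times for astrocytes. Of the 5 markers of each type, 3 were lower in both mice numbered 1 than in the other 4 and 0 were higher.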
